A study of Mus musculus with 12 samples.

Results

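Leukotriene and prostaglandin synthesis was followed through 10 genes in the striatum of BACHD mice: Alox5ap, Ltc4s, Lta4h, Ptgs1, Ptgs2, Hpgds, Hpgd, Ptges, Pla2g4a and Pla2g7. The members were the array probes annotated with 1 of these gene symbols. Of the 10 genes, 9 had at least 1 such probe (13 probes), and Ptgs1 had none in the annotation used. A probe was kept for testing where its detection p-value, set against the negative controls of the same array, was under 0.01 on at least 4 of the 12 arrays. That left 8 probes of 6 genes (Alox5ap, Ltc4s, Hpgds, Hpgd, Ptges and Pla2g7), of 17188 kept probes and 10031 genes in the whole series.

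All 12 mice were males on the FVB background that carried the BACHD transgene, which gives full-length human mutant huntingtin under huntingtin's own regulatory elements, and were 5 months old. Each received 1 bolus into the striatum, of phosphate-buffered saline (PBS, 4 mice), of an antisense oligonucleotide against wig-1 (wig-1 ASO, 4 mice) or of a negative control oligonucleotide (control ASO, 4 mice). The sample titles call the PBS mice untreated, whereas the study's methods describe the same injection for them. The study killed BACHD mice at more than 1 time after injection, and the time for these arrays was not given in the sources used here. No wild-type littermates and no uninjected mice were among the arrays, so every value below is from an injected striatum of 1 transgenic line. RNA of each mouse was hybridised to 1 Illumina MouseWG-6 v2 array, and the values are log2 of the normalised signal intensity.

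Eicosanoids are short-lived lipid signals made from arachidonic acid, which phospholipases such as the cytosolic enzyme Pla2g4a release from membranes. In the lipoxygenase branch, Alox5 acts with the helper protein Alox5ap (FLAP) to make an unstable leukotriene, which Lta4h turns into a neutrophil attractant and Ltc4s joins to glutathione to make the first of the cysteinyl leukotrienes. In the cyclooxygenase branch, Ptgs1 and Ptgs2 make the common precursor from which Hpgds, Ptgds and Ptges make prostaglandins D and E and Tbxas1 makes thromboxane. Hpgd inactivates prostaglandins, and Pla2g7 inactivates the related lipid called platelet-activating factor. In brain, Alox5ap, Ltc4s and Hpgds are known mainly from microglia and macrophages.

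The targeted mRNA was checked first. Zmat3, the gene symbol of wig-1, read 8.57, 8.60, 8.37 and 8.44 in the PBS mice, 6.89, 6.63, 6.77 and 5.95 in the wig-1 ASO mice and 8.48, 8.47, 8.53 and 8.31 in the control ASO mice. Its log2 signal fell by 1.93 against PBS (SE 0.18, adjusted p = 0.000842) and by 1.89 against control ASO (SE 0.18, adjusted p = 0.00278), in 4 of 4 mice. Here and below, changes, standard errors (SE) and adjusted p-values come from limma over all 12 arrays with Benjamini-Hochberg adjustment over the 17188 kept probes, and a probe passed at an adjusted p under 0.05. The labels give the tissue as brain and the methods as striatum, and 10 of 12 striatal spiny neuron markers were above the filter, the other 2 having no named probe. Between 15228 and 17198 probes were detected per array, fewest in wig-1 ASO replicate 1, and the dimmest detected probe of each array lay between 2.62 and 3.20.

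Alox5ap and Ltc4s rose after the wig-1 ASO against PBS, in 4 of 4 mice, and no other of the 10 genes passed. Lta4h, Ptgs2 and Pla2g4a were below the filter and Ptgs1 had no probe, so no change was tested for them. Against PBS, Alox5ap was 2.96-fold and 3.39-fold higher at its 2 probes and Ltc4s 3.14-fold higher. Hpgds, at 2.39-fold and 2.55-fold, did not pass. Folds of dim genes shrank with an offset of 16 added to each signal before the log, to a log2 change of 0.98 for Ltc4s and, in the same order, 0.42 and 0.58 for Hpgds. Against control ASO, Alox5ap passed at 1 of its 2 probes, and no other of the 10 genes passed. None of the 10 passed between control ASO and PBS.

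**Figure D1:**
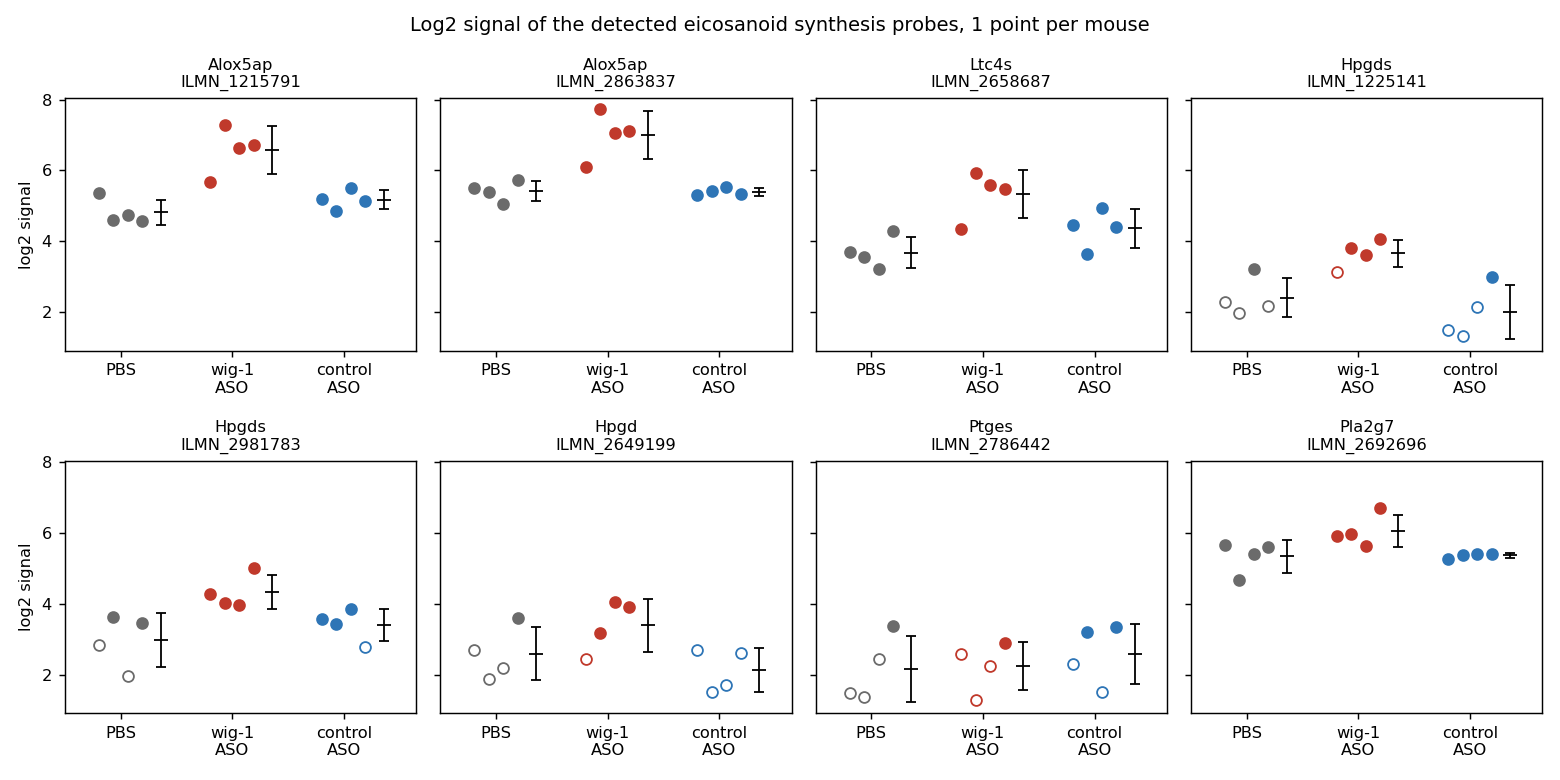
Log2 signal of the 8 kept probes in each mouse (vertical axis), by group (horizontal axis). Filled points were detected, open points were not, and the bar beside each group is its mean ± SD (n = 4). The Alox5ap and Ltc4s points of the wig-1 ASO mice all lie above those of the PBS mice, and wig-1 ASO replicate 1, the leftmost of its group, is the lowest of the 4 at these 3 probes.

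Alox5ap, which presents arachidonic acid to the lipoxygenase, was detected on all 12 arrays at both probes. At the brighter probe, ILMN_2863837, which stands for the gene in the counts, the PBS mice read 5.50, 5.38, 5.06 and 5.74 (mean 5.42 ± 0.28, SD, n = 4). The wig-1 ASO mice read 6.08, 7.72, 7.05 and 7.11 (6.99 ± 0.68), and the control ASO mice 5.29, 5.41, 5.54 and 5.33 (5.39 ± 0.11). The wig-1 ASO values did not overlap with either other group, and replicate 1 of that group lay closest to the rest. The change was 1.57 against PBS (SE 0.28, adjusted p = 0.0153) and 1.60 against control ASO (SE 0.28, adjusted p = 0.0410). Between control ASO and PBS it was −0.03 (SE 0.28, adjusted p = 0.991).

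The other Alox5ap probe, ILMN_1215791, gave 5.35, 4.60, 4.74 and 4.57 with PBS, 5.68, 7.28, 6.62 and 6.71 with the wig-1 ASO and 5.20, 4.84, 5.49 and 5.14 with the control ASO. Again all wig-1 ASO mice were above all others, with replicate 1 lowest and replicate 2 highest among the 4. The change was 1.76 against PBS (SE 0.30, adjusted p = 0.0129), whereas 1.41 against control ASO missed the threshold (SE 0.30, adjusted p = 0.0549). The study lists Alox5ap among the genes it selected on these same arrays, so the direction of this gene is not independent evidence. Against PBS, the call at the brighter probe was lost without wig-1 ASO replicate 4 (adjusted p = 0.0527) and held in the other 11 fits that left out 1 array, and at the other probe it held in all 12. Against control ASO, the brighter probe passed in 2 of 12 such fits, those without PBS replicate 4 (adjusted p = 0.0462) or wig-1 ASO replicate 1 (adjusted p = 0.00114), and reached an adjusted p of 0.109 without control ASO replicate 1.

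Ltc4s, the enzyme that commits the pathway to cysteinyl leukotrienes, was detected on all 12 arrays at its single probe, ILMN_2658687. Its log2 signals were 3.70, 3.54, 3.20 and 4.28 with PBS (3.68 ± 0.45), 4.35, 5.92, 5.58 and 5.47 with the wig-1 ASO (5.33 ± 0.68) and 4.45, 3.63, 4.95 and 4.40 with the control ASO (4.36 ± 0.54). The wig-1 ASO mice were all above the PBS mice, by a narrow margin for replicate 1 (4.35 against 4.28). In 3 of the 4 control ASO mice Ltc4s was also above every PBS mouse, and wig-1 ASO replicate 1 lay within the control ASO range. The change was 1.65 against PBS (SE 0.36, adjusted p = 0.0328), 0.97 against control ASO (SE 0.36, adjusted p = 0.252) and 0.68 between control ASO and PBS (SE 0.36, adjusted p = 0.750). The order of the groups was thus PBS, control ASO, wig-1 ASO, with neither pair of neighbours separated beyond its spread. The call against PBS held in 4 of the 12 fits without 1 array, those without PBS replicate 4, wig-1 ASO replicate 1, control ASO replicate 2 or control ASO replicate 3, and elsewhere the adjusted p rose to at most 0.0999, without wig-1 ASO replicate 2.

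Of the 10 genes, 6 were measured, with 1 probe standing for each. Of these 6, 2 rose against PBS (Alox5ap and Ltc4s) and none fell, where 2.29% of all kept probes rose. Against control ASO 1 rose (Alox5ap), where 0.634% of all kept probes did. Between control ASO and PBS, 0% of kept probes passed in either direction in limma (0 of 17188, with 1175 at an unadjusted p under 0.05). Every wig-1 ASO array lay above every PBS array at 4 of the 8 kept member probes, against 5.56% of all kept probes, and above every control ASO array at 5 of 8, against 4.14%. Some probes were among the 6 genes and the 8 probes only because the wig-1 ASO arrays were bright enough to be detected. The counts and shares are therefore not evidence for the genes as a group. With 4 arrays against 4, an exact two-sided permutation test cannot go below p = 0.029.

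Lta4h, which makes the other leukotriene product, was not detected on any of the 12 arrays. Its probe read 1.06 to 1.42 with PBS, 1.24 to 1.46 with the wig-1 ASO and 1.08 to 1.52 with the control ASO, all below the dimmest detected signal, so these arrays give no change for it. The enzyme upstream of the lipoxygenase step and the lipoxygenase itself were also below the filter. Pla2g4a, the phospholipase that releases arachidonic acid, read 1.01 to 1.76 and was detected on 0 of 12 arrays. Alox5, the lipoxygenase that Alox5ap serves, was below the filter at all 3 of its probes. At ILMN_1221016 it read 1.54, 2.41, 1.5 and 1.92 with PBS, 2.24, 2.60, 2.51 and 3.21 with the wig-1 ASO and 1.91, 1.44, 1.34 and 1.49 with the control ASO. Only wig-1 ASO replicate 4 was detected there.

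**Figure D2:**
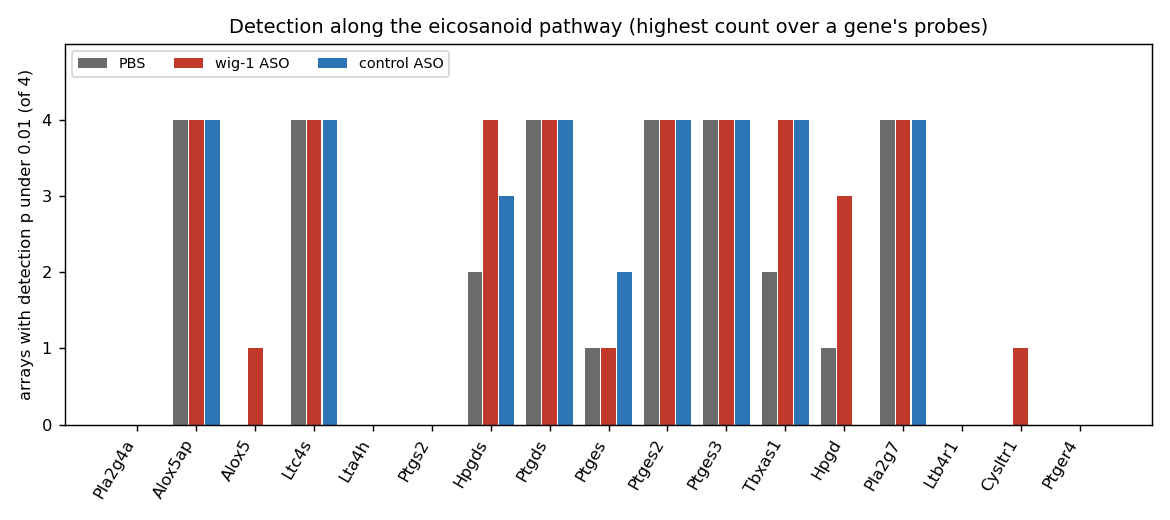
Number of arrays, of 4 in each group (vertical axis), on which each pathway gene was detected at a detection p-value under 0.01, taking the highest count over a gene's probes. Alox5ap and Ltc4s stand at 4 in every group, while Pla2g4a, Lta4h and Ptgs2 stand at 0 in every group and Alox5 at 1 in the wig-1 ASO group alone.

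In the cyclooxygenase branch, the inducible enzyme Ptgs2 was undetected on all 12 arrays at both of its probes, at 1.10 to 2.28 and 1.02 to 1.54. Hpgds, the blood-cell form of prostaglandin D synthase, was dim, and its 2 probes were detected on 9 and 5 of the 12 arrays. At ILMN_2981783 it read 2.84, 3.64, 1.96 and 3.47 with PBS (2 of 4 detected), 4.29, 4.03, 3.98 and 5.01 with the wig-1 ASO (4 of 4) and 3.56, 3.44, 3.86 and 2.78 with the control ASO (3 of 4). All 4 wig-1 ASO mice were above every other mouse. Yet neither the change of 1.35 against PBS (SE 0.37, adjusted p = 0.0759) nor that of 0.92 against control ASO (SE 0.37, adjusted p = 0.294) passed.

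At the other Hpgds probe, ILMN_1225141, the values were 2.28, 1.96, 3.21 and 2.16 with PBS, 3.14, 3.82, 3.61 and 4.05 with the wig-1 ASO and 1.48, 1.33, 2.14 and 3.0 with the control ASO. The wig-1 ASO mice were apart from the control ASO mice but overlapped with PBS at 1 mouse (replicate 1, 3.14 against 3.21). Neither the change of 1.26 against PBS (SE 0.38, adjusted p = 0.0984) nor that of 1.67 against control ASO (SE 0.38, adjusted p = 0.0654) passed. Against control ASO this probe did pass without wig-1 ASO replicate 1 (adjusted p = 0.0365) and under 3 other settings. The 2 probes differed in sign between control ASO and PBS, at 0.43 and −0.41 (SE 0.37 and 0.38), with adjusted p = 0.814 and 0.826.

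Ptges, the inducible prostaglandin E synthase, was detected on 4 of 12 arrays at ILMN_2786442 and on none at ILMN_2616028. At the former it read 1.48, 1.37, 2.43 and 3.37 with PBS, 2.57, 1.29, 2.25 and 2.88 with the wig-1 ASO and 2.30, 3.20, 1.52 and 3.34 with the control ASO. The 3 groups overlapped throughout. Its change against PBS was 0.08 (SE 0.53, adjusted p = 0.960). Its sign turned when single arrays were left out, as did those of Ptges3 and Ptgds. The constitutive cytosolic synthase Ptges3, bright on all arrays, was at 6.31 to 6.64 with PBS, 6.39 to 6.69 with the wig-1 ASO and 6.09 to 6.61 with the control ASO, a change of 0.06 against PBS (SE 0.14, adjusted p = 0.869).

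Ptgds, the brain form of prostaglandin D synthase, made by meninges, choroid plexus and oligodendrocytes, read 11.00, 11.17, 11.46 and 11.17 with PBS. It read 11.30, 11.07, 11.47 and 10.63 with the wig-1 ASO and 11.19, 11.26, 11.48 and 11.81 with the control ASO. The groups overlapped and the change against PBS was −0.08 (SE 0.19, adjusted p = 0.877). The mean level of 6 choroid plexus markers varied widely between mice, from 4.47 to 7.07 with PBS, 3.85 to 7.84 with the wig-1 ASO and 4.88 to 7.93 with the control ASO, and its part in the Ptgds values was not tested.

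Among the enzymes that end the signals, Hpgd was detected on 1, 3 and 0 of 4 arrays with PBS, wig-1 ASO and control ASO. It read 2.70, 1.88, 2.20 and 3.59 with PBS, 2.44, 3.18, 4.04 and 3.90 with the wig-1 ASO and 2.70, 1.5, 1.72 and 2.61 with the control ASO. The wig-1 ASO mice overlapped with both other groups. The change of 0.80 against PBS did not pass (SE 0.45, adjusted p = 0.384). No control ASO array detected Hpgd. With each of them taken at its dimmest detected signal, the wig-1 ASO mean as measured was 1.42-fold higher. This is not a strict lower bound, since wig-1 ASO replicate 1 was also undetected. Most of the arrays that carried Hpgd past the filter were of the wig-1 ASO group. The value has no test of its own, and the fitted change of 1.26 against control ASO did not pass (SE 0.45, adjusted p = 0.227).

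Pla2g7, the platelet-activating factor acetylhydrolase, was detected on all 12 arrays. It read 5.65, 4.67, 5.42 and 5.61 with PBS (5.34 ± 0.46), 5.93, 5.96, 5.62 and 6.71 with the wig-1 ASO (6.05 ± 0.46) and 5.27, 5.39, 5.41 and 5.42 with the control ASO (5.37 ± 0.07). The wig-1 ASO mice were above all control ASO mice, and 3 of them were above all PBS mice. The changes of 0.71 against PBS (SE 0.25, adjusted p = 0.152) and 0.68 against control ASO (SE 0.25, adjusted p = 0.238) did not pass.

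**Figure D3:**
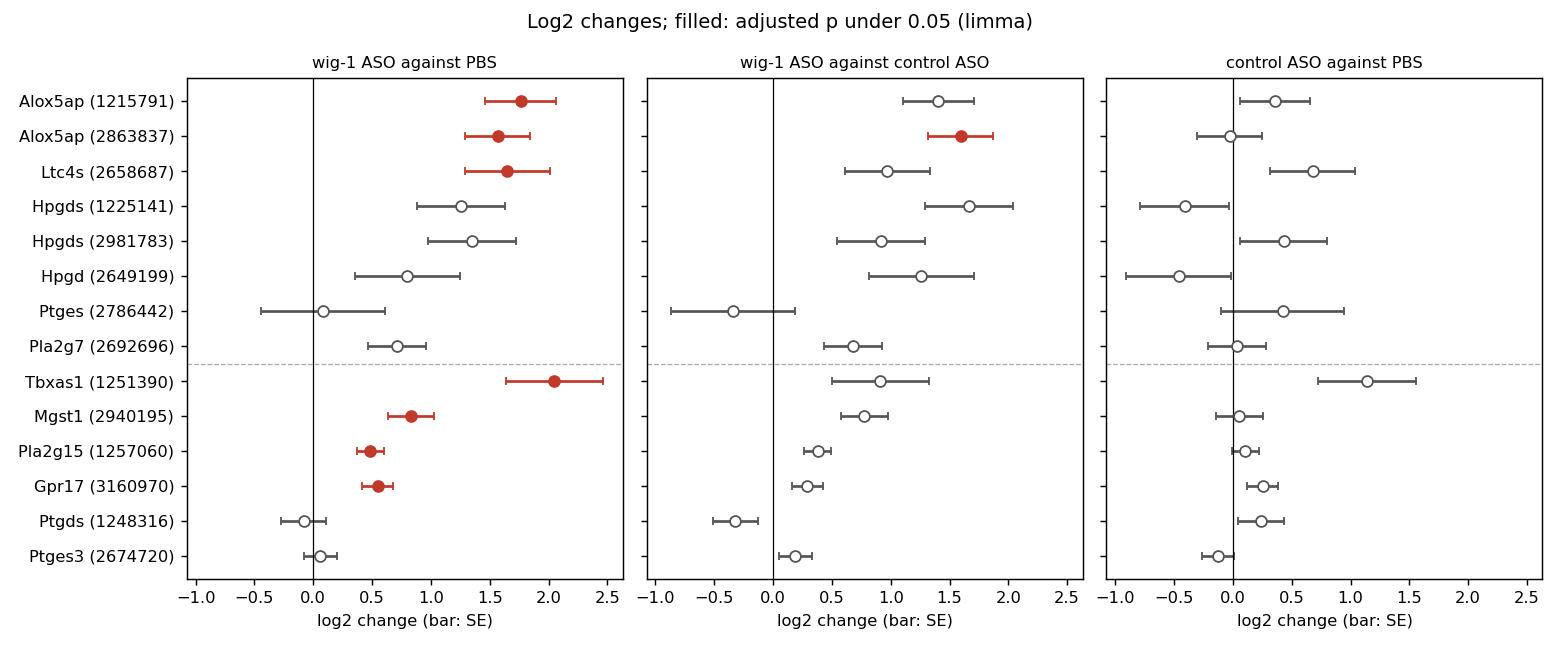
Log2 change (horizontal axis) with its SE for the 8 kept member probes and, under the dashed line, 6 further pathway genes, in each of the 3 comparisons. Filled points had an adjusted p under 0.05 in limma: 3 member probes and Tbxas1, Mgst1, Pla2g15 and Gpr17 against PBS, 1 Alox5ap probe against control ASO, and none between control ASO and PBS.

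A wider list of 71 genes held the other phospholipases, lipoxygenases, prostanoid enzymes, transporters, platelet-activating factor enzymes and receptors of these lipids. Of these, 29 were measured, 38 were below the filter and 4 had no named probe. Against PBS 4 rose and 0 fell, where 2.29% of all kept probes rose. The median change was 0.10, where the median of all kept probes was −0.02. Against control ASO 0 of 29 passed (median 0.11), and between control ASO and PBS 0 of 29 (median 0.05). The other 25 did not pass in any of the 3 comparisons.

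Tbxas1, the thromboxane synthase, had the largest change of the 4. At ILMN_1251390 it read 2.23, 2.68, 2.91 and 2.88 with PBS (1 of 4 detected), 3.44, 5.74, 5.02 and 4.70 with the wig-1 ASO and 4.03, 4.12, 4.02 and 3.09 with the control ASO (4 of 4 in both). Both ASO groups lay above every PBS mouse, and they overlapped with each other. The change was 2.05 against PBS (SE 0.41, adjusted p = 0.0252), 0.91 against control ASO (SE 0.41, adjusted p = 0.357) and 1.14 between control ASO and PBS (SE 0.41, adjusted p = 0.707, unadjusted p = 0.0180). Its other kept probe, ILMN_2769191, changed by 1.07 against PBS and did not pass (SE 0.39, adjusted p = 0.175). With the offset of 16 the change at ILMN_1251390 was 0.97. The call against PBS held in 6 of 12 fits without 1 array and was lost without any 1 of PBS replicates 1, 2 and 3 or wig-1 ASO replicates 2, 3 and 4, at an adjusted p of up to 0.0708.

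The other 3 that rose had smaller changes. Mgst1, a glutathione transferase of the protein family that also holds Alox5ap and Ltc4s, read 6.15 to 6.73 with PBS, 6.73 to 7.61 with the wig-1 ASO and 6.25 to 6.73 with the control ASO, a change of 0.83 against PBS (SE 0.20, adjusted p = 0.0447). Pla2g15, the lysosomal phospholipase, read 7.67 to 7.77, 7.98 to 8.53 and 7.75 to 7.93 in the same order, a change of 0.48 (SE 0.12, adjusted p = 0.0448). Gpr17, a receptor of oligodendrocyte precursors related to the cysteinyl leukotriene receptors, read 6.09 to 6.64, 6.86 to 7.11 and 6.59 to 6.88, a change of 0.55 (SE 0.13, adjusted p = 0.0471). Each of these 3 calls held in only 1 of the 12 fits without 1 array, the one without wig-1 ASO replicate 1.

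The receptors for the products were mostly out of reach. Of 16 receptor genes, 13 were below the filter, 2 had no named probe, and Gpr17 alone was measured. Ltb4r1, the leukotriene B receptor, and Ptger4, a prostaglandin E receptor, were detected on 0 of 12 arrays. Cysltr1, a cysteinyl leukotriene receptor, read 1.19 to 2.05 with PBS, 1.24, 3.04, 1.94 and 2.14 with the wig-1 ASO and 1.29 to 2.67 with the control ASO, and was detected in wig-1 ASO replicate 2 alone.

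Many markers of microglia and macrophages also rose after the wig-1 ASO. Of the marker genes with a named probe, 14 were measured and 4 (Itgam, Ptprc, Fcer1g and Spi1) were below the filter. Against PBS 10 of the 14 rose and 0 fell, with a median change of 1.58, where 2.29% of all kept probes rose. Against control ASO 5 rose (median 1.26), where 0.634% of all kept probes did, and between control ASO and PBS 0 (median 0.31). The markers were listed with earlier results of these data known. Many also appear in networks that the study built from genes it selected on these same arrays. These counts are therefore not independent evidence. The summed signal of the 14 was 1902 to 2185 with PBS, 3600.0 to 7262 with the wig-1 ASO and 2013 to 3278 with the control ASO. In a bulk sample, more cells of a type and more RNA per cell cannot be told apart.

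Mouse by mouse, the mean log2 level of the 14 markers lay above the PBS mean by 0.83, 1.91, 1.44 and 1.73 in wig-1 ASO replicates 1 to 4. At its brighter probe, Alox5ap lay above its PBS mean by 0.66, 2.30, 1.63 and 1.69 in the same mice, and Ltc4s by 0.67, 2.24, 1.90 and 1.79. Replicate 1 was thus lowest and replicate 2 highest for both genes and for the markers. These extremes were not particular to them, since Tbxas1 at ILMN_1251390, Mgst1, Pla2g15 and Gpr17 had the same lowest and highest mouse. The spiny neuron markers had the reverse, at 0.03 and −1.08 from their PBS mean in replicates 1 and 2. Replicate 1 also had the fewest detected probes (15228) and the highest Zmat3 of its group (6.89). Hpgds followed another order, at 1.31, 1.05, 1.0 and 2.03, with replicate 4 highest. In the control ASO mice the markers lay at 0.31, 0.33, 0.70 and −0.04, Ltc4s at 0.77, −0.05, 1.27 and 0.72 and Alox5ap at −0.13, −0.01, 0.12 and −0.09. Replicate 3 was highest for all 3 measures there. The part of the microglial markers in the Alox5ap and Ltc4s values was not tested.

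**Figure D4:**
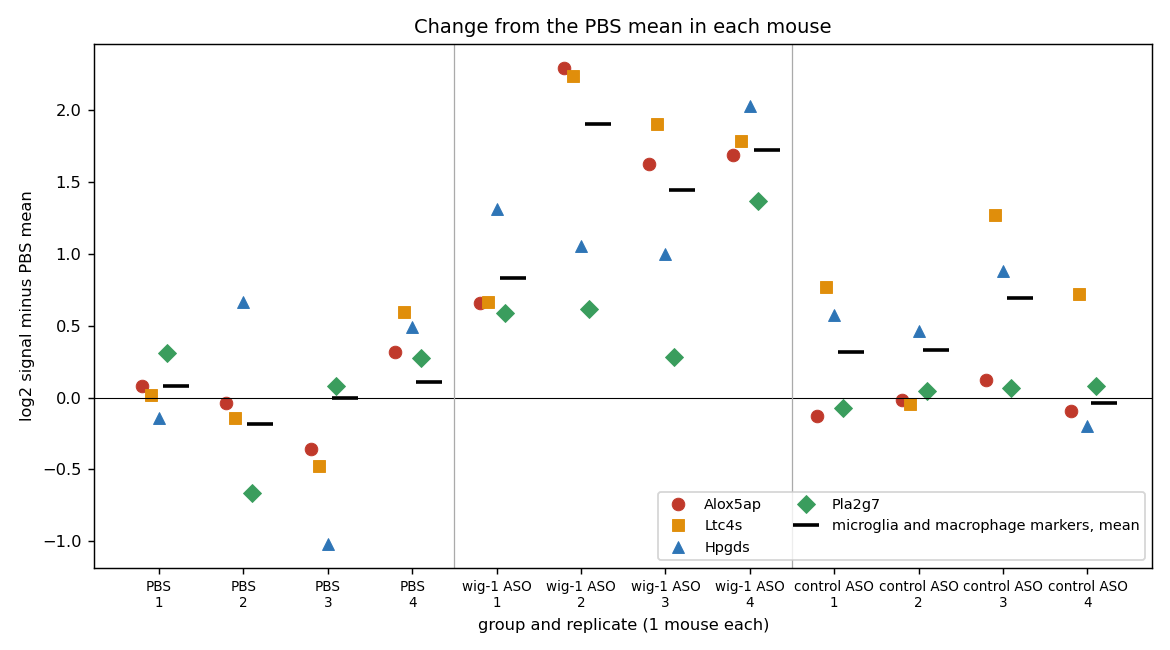
Log2 signal minus the PBS mean (vertical axis) in each mouse, by group and replicate (horizontal axis), for Alox5ap, Ltc4s, Hpgds and Pla2g7 and for the mean of 14 microglia and macrophage markers (black bars). In wig-1 ASO replicate 1 the markers, Alox5ap and Ltc4s stand at 0.83, 0.66 and 0.67, and in replicate 2 at 1.91, 2.30 and 2.24.

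Markers of other cells that can make these enzymes were also examined. Mast cells are a classic source of Ltc4s and Hpgds, and their proteases Cpa3, Cma1, Mcpt4, Tpsb2 and Tpsab1 and the receptor chain Ms4a2 were detected on 0 of 12 arrays, while Kit and Hdc, also made in brain, did not pass (median change of the list −0.17 against PBS). Of the neutrophil and monocyte markers, Mpo, Elane, Ngp, Camp, Ltf and Ccr2 were detected on 0 of 12 arrays. Of the 4 measured, Plac8 rose against PBS and S100a9 against control ASO, and the list had a median change of 1.32 against PBS and 1.68 against control ASO, with 4 of 4 genes above 0 in both. Its mean log2 level was 2.20 to 3.21 with PBS, 3.49 to 4.81 with the wig-1 ASO and 2.12 to 2.93 with the control ASO, so that the wig-1 ASO mice were apart from both other groups. Of 3 measured platelet genes, Itga2b rose against PBS and against control ASO. It alone lay above 0 in both, and the list medians were −0.24 and −0.03. Gp9 and Ppbp were below the filter. Among border-associated macrophage genes 1 of 4 rose against PBS (Ms4a7), with a list median of 1.12 against PBS and 1.31 against control ASO and 3 of 4 genes above 0 in both. Their mean log2 level was 3.21 to 3.83 with PBS, 3.90 to 6.0 with the wig-1 ASO, all above the PBS mice, and 3.20 to 3.92 with the control ASO, which just overlapped. In the neutrophil and monocyte list and the border-associated macrophage list, wig-1 ASO replicate 1 was lowest of its group and replicate 2 highest. Alox5ap and Ltc4s had the same extremes, but so did Tbxas1 at ILMN_1251390, Mgst1, Pla2g15 and Gpr17. The order of replicates 3 and 4 in these lists was not that of Alox5ap. Among astrocyte genes 1 of 10 rose (Gfap). The 10 spiny neuron markers lay lower against PBS, with a median of −0.62 and none passing, and at −0.37 between control ASO and PBS. Over all kept probes, 2.29% rose against PBS and 0.634% against control ASO. Undetected markers do not show that a cell type was absent, since the neuron markers Snap25, Tubb3 and Nefl were also below the filter here. How far these cell types contributed to the member genes was not tested.

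The genes that followed each member most closely were ranked by the mean absolute difference between their changes from the PBS mean over the 12 arrays, among 10030 other genes. For Alox5ap they were Emp3 (0.14), Ptpn6 (0.14) and Plek (0.16), and for Ltc4s Gusb (0.22), Lat2 (0.26) and Man2b1 (0.26). All 6 rose against PBS, by 1.41 to 1.77, a rise built into their choice by closeness to genes that rose. Nearest to Hpgds were Cd37 (0.29), Insl3 (0.32) and Dct (0.33), and nearest to Pla2g7 were Klhl25 (0.17), 2810459M11Rik (0.19) and A730063M14Rik (0.19). For the dim genes Hpgd (Stra6, Tac2 and Gm8615) and Ptges (Hps5, C2cd4a and Kdm4c) the nearest genes were 0.37 to 0.44 away, and none of these 6 passed against PBS. Among the members themselves, Alox5ap and Ltc4s were the closest pair (0.33) and Ltc4s and Ptges the farthest (1.09). All these distances share the same 12 arrays and are a description, and the changes of the nearest genes are no separate evidence.

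Promoter windows of 9 of the 10 genes, Alox5ap excepted, were read from RefSeq on build GRCm38.p6, from 250 bases before the start of the gene to 50 after it. The ETS core GGAAGT, searched on both strands since factors of this family act in blood and microglial cells, was in 4 of 10 member windows (Ltc4s, Hpgds, Pla2g4a and Ptgs1) and in 23.8% of all 32851 windows. The GC box GGGCGG was in 4 (Hpgd, Pla2g7, Ptges and Ptgs2; 35.7% of all), the TATA box TATAAA in 2 (Hpgd and Pla2g4a; 13.6%) and the E-box CACGTG in 1 (Ptgs2; 7.15%). A match of letters is a description and not a binding site. The windows of Ltc4s, which rose, and Hpgds, which had the next highest changes, each held GGAAGT and no GC box or TATAAA. They are shown from 130 to 31 bases before the start, 5′ to 3′ on the gene's minus strand, with GGAAGT in capitals, Ltc4s at chr11:50238563-50238662 and Hpgds at chr6:65144761-65144860.
Ltc4s: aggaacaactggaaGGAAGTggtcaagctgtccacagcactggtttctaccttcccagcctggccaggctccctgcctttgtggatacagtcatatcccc
Hpgds: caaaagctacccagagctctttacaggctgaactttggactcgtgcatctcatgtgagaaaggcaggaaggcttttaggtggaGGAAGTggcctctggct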

How the data were processed

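Total striatal RNA was labelled and hybridised to Illumina MouseWG-6 v2 arrays, and the authors name the R packages lumi and siggenes for its processing. For 45281 probes on each array the authors deposited an intensity, its detection p-value and, in a separate table, a log2 value. In the deposited intensities the sorted values were identical between the 12 arrays, so normalisation was already in them, and their log2 matched the deposited log2 table. They were used as they stand, which forces every array to 1 distribution. The chip of each array was not given in the sources used here, so no batch could be tested. The SAM test of siggenes was not run.

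Probe symbols came from the platform annotation (34885 probes with 1 symbol, 18 with several, 10378 with none). Probes detected (p-value under 0.01) on 4 or more arrays were tested with limma 3.58.1 in R 4.3.3, with 1 mean per group and 9 residual degrees of freedom. Where several probes of a gene were kept, the brightest on average stood for it. All members were named at every probe, as were genes of the wider list that passed, the 3 nearest genes per member, and Alox5, Ptgds, Ptges3, Ltb4r1, Cysltr1 and Ptger4 whatever their values. The members and lists were chosen with earlier results of these data known. Each array is 1 mouse, and the number of arrays limits the precision. The fit was tested on simulated data. Alternatives covered the detection filter, an offset of 16, the arrays in the fit, the replicate number as a block, the variance model, the array scaling, the deposited log2 table, the study's selection limits and each array left out.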

Additional observations from a re-analysis of the deposited data

Results flagged for a closer look

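Among 48 groups of 4 arrays at the named kept probes, 2 had 1 array far from the others, where chance gives about 2.4. At Tbxas1 probe ILMN_1251390, control ASO replicate 4 read 3.09 and the other 3 control ASO arrays 4.02 to 4.12. At Tbxas1 probe ILMN_2769191, PBS replicate 4 read 1.45 and the other 3 PBS arrays 2.76 to 3.0.

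Among the named probes left out by the filter, only those detected with the wig-1 ASO and in neither other group were sought. The search could therefore favour that group alone. At the 3 probes found, 1 wig-1 ASO array was detected and above every PBS and control ASO array. Other genes of the wider list below the filter went both ways. Pla2g5 was detected on 2 PBS, 0 wig-1 ASO and 1 control ASO arrays, and Ptgr1 on 0, 1 and 0. Alox5 read 3.21 at ILMN_1221016 in wig-1 ASO replicate 4, where the PBS and control ASO arrays read 1.34 to 2.41. In the same mouse Alox5 read 3.05 at ILMN_2928453, where they read 1.48 to 2.74. Cysltr1 read 3.04 at ILMN_2680770 in wig-1 ASO replicate 2, where they read 1.19 to 2.67.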

How the results depend on the processing

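Without the detection filter, 257 probes changed against PBS (577 in the reported fit), with 1 of the 10 genes (Alox5ap) and 0 of the wider list, and 22 against control ASO (162), with 0 of the 10. The stricter filter gave 248 against control ASO. With log2(signal + 16), 913 and 427 probes changed, and Mgst1, 1 gene of the wider list, against control ASO. The intensity trend with robust variances gave 946 and 396, and again 1 (Mgst1). Fitting only the groups compared gave 120 probes against PBS, with 0 of the 10 genes and 0 of the wider list, and 7 against control ASO, with 0 of the 10. Under the study's limits, 1 gene of the wider list (Tbxas1) passed against PBS. The replicate numbers gave no sign of pairing. The deviations of same-numbered arrays correlated at −0.14 to 0.13, and those of differently numbered arrays at −0.20 to 0.25. Such correlations cannot show that the mice were unpaired. With the replicate block, 233 probes changed against PBS, with 1 of the 10 genes (Alox5ap) and 1 of the wider list (Tbxas1), 23 against control ASO with 0 of the 10, and 1 between control ASO and PBS. The cause of these differences was not tested.

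Leaving out 1 array gave 156 to 1234 probes against PBS (fewest without wig-1 ASO replicate 2, most without wig-1 ASO replicate 1), 5 to 545 against control ASO and 0 to 1 between control ASO and PBS. The 10 genes gave 0 to 2, 0 to 1 and 0 to 0, and the wider list 0 to 4, 0 to 2 and 0 to 0. Among the named probes refitted, the sign turned for these changes, none of which had passed: Ptges against PBS (−0.0019 with log2(signal + 16), −0.18 to 0.48 without 1 array), Ptgds (−0.20 to 0.082) and Ptges3 (−0.0039 to 0.12) against PBS without 1 array and, between control ASO and PBS without 1 array, Mgst1 (−0.033 to 0.16), Pla2g7 (−0.19 to 0.14) and Alox5ap ILMN_2863837 (−0.15 to 0.077). Over the named probes and comparisons, the other settings kept the side of the threshold in 384 cases, lost the call in 23, gained one in 12 and turned the sign in 1. Hpgds passed against PBS at ILMN_2981783 with log2(signal + 16) and with the intensity trend and at ILMN_1225141 with log2(signal + 16), and at the latter probe against control ASO with log2(signal + 16), with the intensity trend, under the study's limits and without wig-1 ASO replicate 1. The gene counts above follow ILMN_2981783. Signals near the detection limit restrict Hpgds, Hpgd, Ptges and Tbxas1, and also Ltc4s, which read 3.20 to 4.28 with PBS. They say nothing of Pla2g4a, Alox5, Lta4h and Ptgs2.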
